A study of Mus musculus with 16 samples.

Results

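BU.MPT cells, a mouse proximal tubular line, were measured in normal culture with and without added vitamin B12, and all probe sets of the deposited array table that are not control features were described, 22206 of 28846 features in 8 of the 16 arrays of the study. The 4 control samples were kept under 21% oxygen in medium with 10% serum and 4.5 g/L glucose. The 4 control+B12 samples had the same medium with 0.3 µM cyanocobalamin, the synthetic form of vitamin B12. The other 8 arrays, used here for a shared estimate of the spread and for a side-by-side comparison, came from H/R cells (hypoxia at about 1% oxygen in medium without glucose and serum, then return to normal culture) with and without the same B12 dose.

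Both groups of interest were grown near confluence at 39 °C without IFN-γ, and 700 pg of RNA was labelled per array. The labels used here do not say for how long B12 was present in normal culture. Whether replicates came from separate cultures is not stated either, and the p-values therefore reflect only how these samples spread, which may be technical. Each treated sample has B12 in its title, but for replicates 2, 3 and 4 the description field has B13, B14 and B15, and the title was followed. BU.MPT is 1 cell line, derived from mice that carry a temperature-sensitive T antigen under an interferon-inducible promoter, and warmth without interferon is the setting in which that antigen is held back.

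Cobalamin, the vitamin B12 molecule, reaches cells bound to its carrier transcobalamin, the product of Tcn2, which is taken up by the receptor Cd320. In the kidney tubule the large endocytic receptor Lrp2 (megalin) recovers the filtered carrier. Cubn (cubilin, held in the membrane by Amn) is another endocytic receptor there. Inside the cell Lmbrd1 and Abcd4 export cobalamin from the lysosome, Mmachc and Mmadhc process it, and it serves methionine synthase Mtr in the cytosol and methylmalonyl-CoA mutase Mmut in mitochondria. Serum itself carries cobalamin, so the control cells were not without it.

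The 8 arrays were alike in overall signal, given throughout as the authors' log2 signal. The array medians over the 22206 probe sets lay between 5.28 and 5.37. The mean of these medians was 5.33 in control and 5.34 in control+B12, a difference of 0.0043 (two-sided exact permutation p = 0.886, where 4 against 4 arrays can reach 0.0286). Within each group, pairs of arrays had correlations of 0.990 to 0.993 over the probe sets. For features labelled as negative controls, the array medians ran from 5.72 to 6.10, with the top value in control 1. All of these lay above the medians over the probe sets, and what such features match was not tested. Precision is limited by having 4 arrays in each group.

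The control arrays showed a kidney epithelial cell that carried few of the transport genes of a proximal tubule. A probe set counted as above background where it exceeded the 95th percentile of the negative control features on all 4 control arrays, which held for 5022 of 22206 probe sets (22.6%). Another 11208 (50.5%) lay below the negative control median on all 4. Of 14 measured housekeeping genes 13 were above background by this limit.

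Of 51 measured proximal tubule genes 6 were above background and 39 lay below the negative control median on all 4 control arrays. The 6 were Pax8 (15.91 ± 0.15, SD, n = 4) and Pax2 (14.89 ± 0.20), transcription factors of the whole renal epithelial lineage, the endopeptidase Mme (16.30 ± 0.12), the water channel Aqp1 (14.21 ± 0.26), the endocytic adaptor Dab2 (13.67 ± 0.26) and the angiotensin precursor Agt (11.11 ± 0.08). The defining transport genes were at background. The megalin gene Lrp2 was at 3.34 ± 0.37, cubilin at 3.52 ± 0.04, the phosphate transporter Slc34a1 at 3.41 ± 0.35, the glucose transporter Slc5a2 at 3.34 ± 0.18 and the organic anion transporter Slc22a6 at 2.86 ± 0.16. Hnf4a, a transcription factor of the mature proximal tubule, was at 2.68 ± 0.20. Of the defining markers of a proximal tubule, Aqp1 was thus above background and these 6 genes were not, while Pax8 and Pax2 mark renal epithelium in general.

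Epithelial and injury genes filled more of their lists. Of 33 junction and polarity genes 15 were above background, among them kidney cadherin Cdh16 (14.74 ± 0.20), Cdh6 (14.75 ± 0.06), N-cadherin Cdh2 (13.00 ± 0.12) and claudin 1 (Cldn1, 15.47 ± 0.06). E-cadherin Cdh1 was at 6.10 ± 0.27, near the negative control median, and the adhesion gene Epcam at 3.17 ± 0.32. Of 26 genes of tubule injury and dedifferentiation 20 were above background, with Lcn2, the secreted injury marker NGAL, at 18.73, 18.66, 18.84 and 18.60 in controls 1 to 4. Clusterin (Clu) was at 18.29 to 18.88 and vimentin (Vim) at 14.63 to 15.20. Havcr1, which encodes the injury marker KIM-1, lay below the negative control median on all 4 arrays (3.60 to 4.42), as did Krt19 and Krt20.

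Markers of other cell types were mostly at background. Of 31 genes of the loop, distal tubule and collecting duct 2 were above it, the kinase Wnk1 (15.51 ± 0.11) and the transcription factor Tfap2b (12.33 ± 0.21), while Umod, Slc12a1, Slc12a3 and Aqp2 lay below the negative control median on all 4 arrays. Of 9 podocyte and parietal genes 2 were above background, Cldn1 and Pax8, both held by other lists too. Of 18 leukocyte genes 1 was above it, the endotoxin coreceptor Cd14 (12.51 ± 0.09), and the leukocyte antigen Ptprc was at 3.82 ± 0.18. None of 17 fibroblast and pericyte genes and none of 15 endothelial genes passed the limit, with Col1a1 at 6.39 ± 0.35 and Pecam1 at 3.50 ± 0.42. On the 4 control+B12 arrays the number above background was the same in 8 of these 9 lists and 7 in place of 6 for the proximal tubule list.

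**Figure D1:**
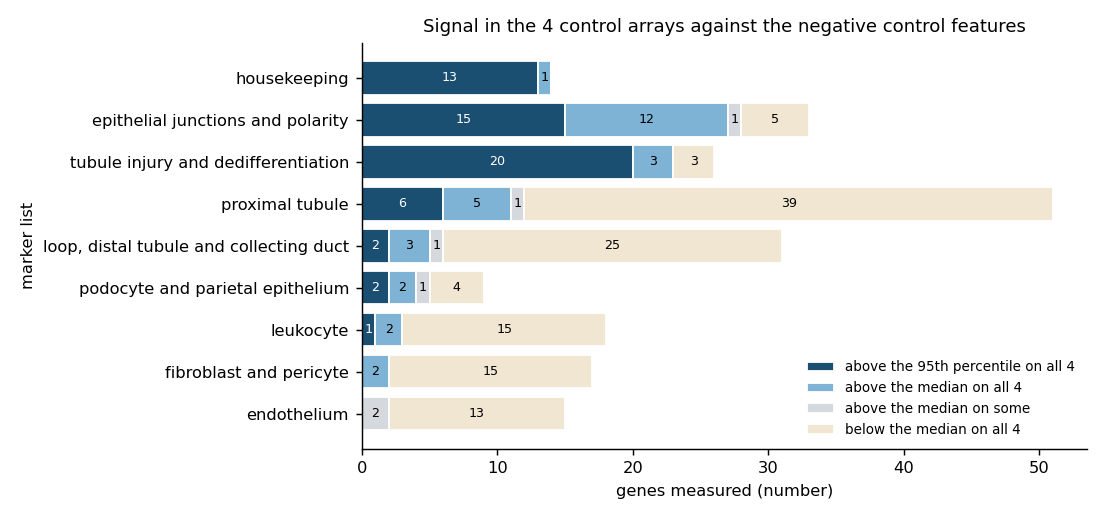
Number of measured genes of 9 marker lists by their signal in the 4 control arrays. Segments give genes above the 95th percentile of the negative control features on all 4 arrays, above the negative control median on all 4, above it on some, and below it on all 4, and 6 of 51 proximal tubule genes stand in the first class against 20 of 26 injury genes.

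B12 in normal culture brought no probe set past the threshold. With all 16 arrays in 1 limma model and p-values adjusted by Benjamini-Hochberg over 22206 probe sets, 0 (0%) had an adjusted p under 0.05, and the smallest was 0.717. At an unadjusted p under 0.05 there were 1280 (5.76%), 644 higher (2.9%) and 636 lower (2.86%) with B12. The 4 control+B12 arrays lay above all 4 control arrays in 301 probe sets (1.36%) and below them in 336 (1.51%). The median difference over all probe sets was -0.0025.

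The 95% intervals show what size of difference these arrays leave room for. Over all probe sets the interval reached 0.46 to either side at the median, and 88.22% of the intervals lay inside 2-fold in both directions. Probe sets whose mean over the 8 arrays exceeded the mean of the negative controls' 95th percentiles (10.30) are called bright here, and there were 5484. In these the interval reached 0.31 to either side at the median, and 5471 intervals (99.76%) lay inside 2-fold and 4867 (88.75%) inside 1.5-fold. Of the 16722 other probe sets 14120 intervals (84.4%) lay inside 2-fold.

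**Figure D2:**
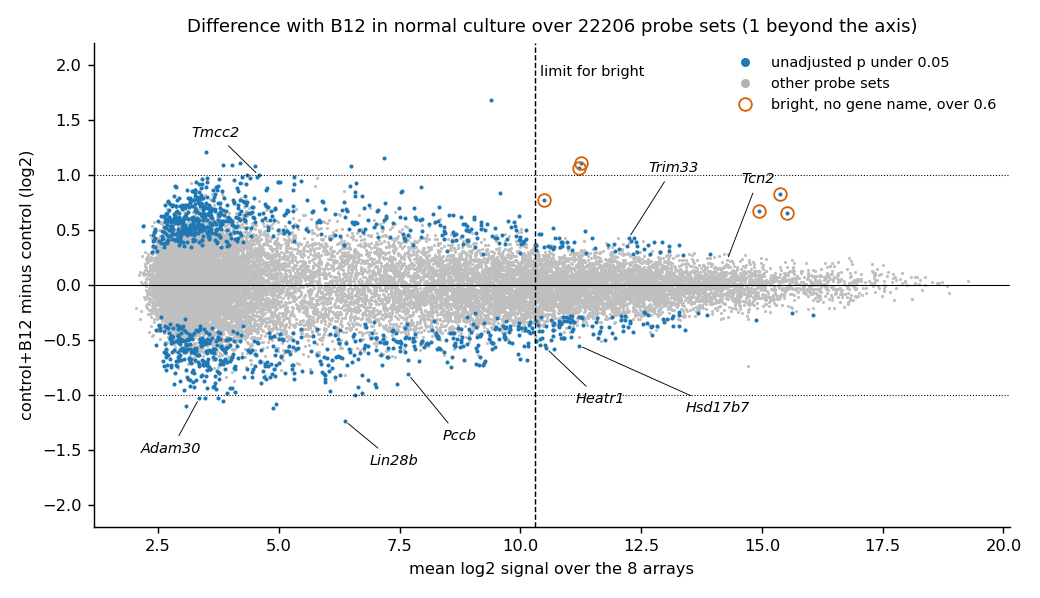
Difference of control+B12 minus control (log2) against the mean log2 signal over the 8 arrays for 22206 probe sets, with 1 unnamed probe set beyond the vertical axis. Blue points have an unadjusted p under 0.05 and none passed after adjustment, the dashed line is the limit for bright probe sets, dotted lines mark 2-fold, and orange circles mark 6 bright probe sets without a gene name that differed by more than 0.6.

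The genes that carry and use cobalamin showed small differences, none past the threshold. Of 21 measured genes 0 passed the adjusted threshold and 1 had an unadjusted p under 0.05, lower with B12, beside 2.86% of all probe sets. The median difference over the 21 was 0.04, and in 20 of them the 95% interval lay inside 2-fold. In no gene of the list did the 2 groups of 4 arrays separate completely. This list and the others below were chosen with earlier results of these data known.

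Uptake began with Tcn2, the carrier, at 13.58, 14.33, 14.35 and 14.41 in controls 1 to 4 and at 14.26, 14.56, 14.35 and 14.39 with B12. Control 1 lay apart below the other 7 arrays, which spanned 14.26 to 14.56. By limma the difference was 0.22 ± 0.17 (SE, n = 4 against 4; adjusted p = 0.925) and 0.03 without control 1. The receptor Cd320 was at 9.61, 9.95, 10.19 and 10.13 in control and at 9.82, 10.06, 10.10 and 10.07 with B12, and the groups overlapped (0.04 ± 0.18). The tubular receptors Lrp2, Cubn and Amn and the intrinsic factor gene Cblif were at background on all 8 arrays, so their differences, 0.41 for Lrp2 and 0.31 for Cblif, concern signal at the level of the negative controls.

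No gene of lysosomal export and processing had an unadjusted p under 0.05. Lmbrd1 was at 12.58 to 13.10 in control and 12.87 to 13.08 with B12 (0.13 ± 0.13). Its partner Abcd4 was at 5.40 to 6.19 and 5.44 to 6.28, close to the negative control median, and had the largest difference of these genes (0.33 ± 0.23, adjusted p = 0.916 by limma). The processing genes Mmachc (-0.09 ± 0.20) and Mmadhc (0.07 ± 0.15), the adenosylation genes Mmaa (0.21 ± 0.21) and Mmab (0.04 ± 0.17), and Abcc1, a pump that moves cobalamin out of cells (0.13 ± 0.11), overlapped between the groups. Hcfc1 and Thap11, which regulate the transcription of Mmachc, were at 0.04 ± 0.13 and 0.18 ± 0.16.

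The enzymes that use the cofactor came next. Methionine synthase Mtr was at 11.08, 10.75, 10.41 and 10.79 in control and at 10.70, 10.25, 10.69 and 10.77 with B12 (-0.16 ± 0.17), and its reactivating reductase Mtrr differed by -0.35 ± 0.20. Mmut, the mitochondrial mutase, was at 11.22, 11.46, 11.43 and 11.63 in control and at 11.45, 11.35, 11.30 and 11.03 with B12 (-0.15 ± 0.13). Both enzymes overlapped between groups, and the intervals of their differences lay inside 2-fold.

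The 1 gene of the list with an unadjusted p under 0.05 was Pccb, the beta subunit of propionyl-CoA carboxylase, which feeds the pathway that ends at Mmut. It was at 7.89, 8.15, 8.26 and 8.06 in control and at 7.40, 7.90, 6.81 and 6.99 with B12. Of the treated arrays 3 lay below all controls, and control+B12 2 lay just above control 1. The difference was -0.82 ± 0.26 (unadjusted p = 0.00582, adjusted p = 0.82, 95% interval -1.36 to -0.27). The partner subunit Pcca was at -0.17 ± 0.20, and in H/R cells the B12 difference of Pccb was -0.15.

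**Figure D3:**
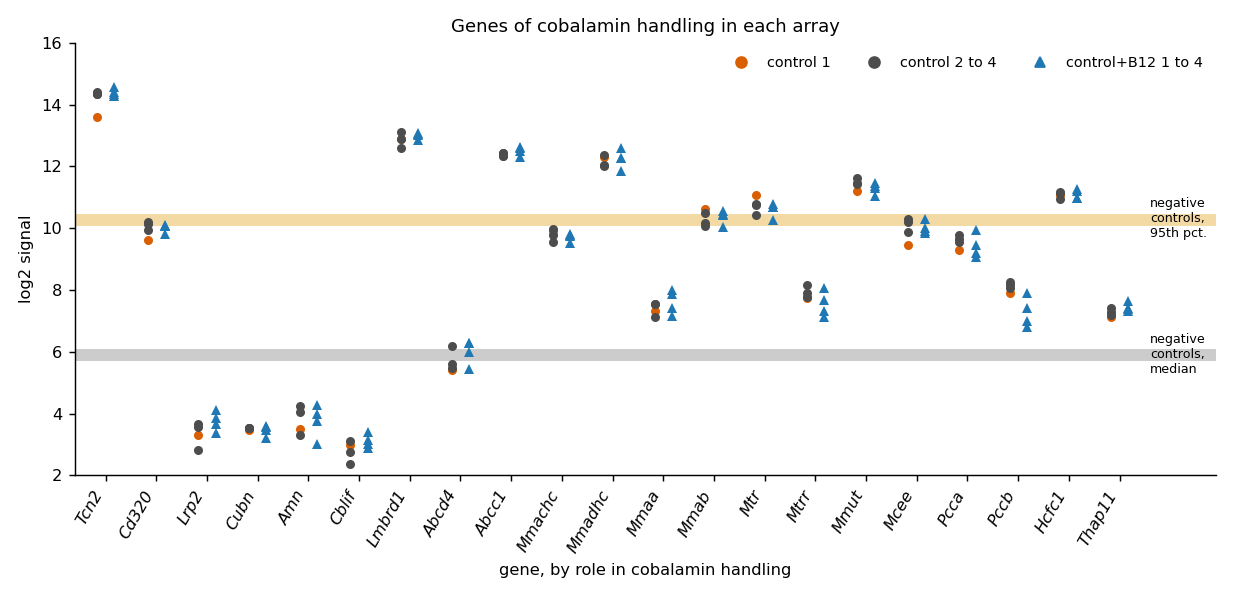
Log2 signal of 21 genes of cobalamin handling in each of the 8 arrays, ordered by role from carrier and receptors to enzymes and regulators. Grey and yellow bands span the negative controls' medians and 95th percentiles over the 8 arrays; Lrp2, Cubn, Amn and Cblif lie below the grey band, and control 1 (orange) stands below the other arrays in Tcn2.

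The methionine and folate cycles, which meet at methionine synthase, had 33 measured genes, of which 0 passed and 1 was higher at an unadjusted p under 0.05 (median difference -0.14, and -0.09 without control 1), beside 2.9% of all probe sets. Leaving out other arrays gave medians from -0.06 without control+B12 1 to -0.16 without control+B12 4. That gene, Gldc of the glycine cleavage system, was at 2.12 to 3.11 in control and 3.02 to 3.23 with B12, below the negative control median on every array (0.58 ± 0.18). Abundant members, picked after their values were seen, overlapped between groups: S-adenosylhomocysteine hydrolase Ahcy at -0.21 ± 0.17, thymidylate synthase Tyms at -0.17 ± 0.15, Shmt2 at -0.16 ± 0.14 and Phgdh of serine synthesis at -0.03 ± 0.14. Mthfd2, a mitochondrial folate enzyme, was at 0.01 ± 0.22.

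Enzymes that remove superoxide and peroxide were of interest because cobalamin is known to react with superoxide in solution. Of 24 measured genes 17 were above background in control, and 0 of 24 passed or had an unadjusted p under 0.05 (median difference -0.02). The cytosolic dismutase Sod1 was at 15.66, 15.40, 15.44 and 15.49 in control and at 15.49, 15.16, 15.47 and 15.50 with B12 (-0.10 ± 0.13). The mitochondrial dismutase Sod2 differed by -0.0050 ± 0.16, catalase (Cat) by 0.13 ± 0.14 and peroxidase Gpx1 by -0.03 ± 0.12. In 21 of the 24 the interval lay inside 2-fold.

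Over all 24 lists, 591 genes, 0 passed the adjusted threshold, 14 were higher (2.37%) and 25 lower (4.23%) at an unadjusted p under 0.05, beside 2.9% and 2.86% of all probe sets, and the median difference was -0.02. Of the lower ones 10 belonged to S phase (5), G2 and M phase (4) and cholesterol synthesis (1), lists that were high in control 1. Without control 1 the totals were 9 higher and 11 lower. Leaving out any of the other 7 arrays gave 5 to 15 higher and 20 to 35 lower, with the fewest higher without control+B12 3 (5) and control 3 (7). The 42 measured genes of oxidative phosphorylation had 1 lower and none higher, and all 42 intervals lay inside 2-fold. The lower one was the complex I subunit Ndufb3, at 11.08, 11.19, 11.08 and 11.19 in control and 10.73, 10.51, 10.72 and 10.64 with B12, groups that did not overlap (-0.48 ± 0.14, adjusted p = 0.762). The 26 targets of the hypoxia-inducible factor had none in either direction (median 0.03). The 25 p53 targets had 2 higher, the DNA polymerase Polk (0.31 ± 0.14) and the BH3-only death gene Bbc3 (0.67 ± 0.31), and none without control 1, control 2 or control+B12 3.

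Of 5 stress and signalling lists, 4 had lower genes alone at an unadjusted p under 0.05, which 2.86% of all probe sets had. The 31 immediate early genes had 2 higher and 3 lower (0 and 1 without control 1), with Atf3 at -0.52 ± 0.20 and the phosphatase Dusp4 at 0.52 ± 0.24. The 23 genes of the integrated stress response had 2 lower, the cystine transporter Slc7a11 (-0.86 ± 0.28) and the amino acid transporter Slc7a5 (-0.55 ± 0.22, but -0.30 without control 1, which left 1 lower). Of 29 NF-kB targets and cytokines the adhesion molecule Vcam1 was lower (-0.54 ± 0.22), and of 33 interferon-stimulated genes Usp18 (-0.45 ± 0.19). Bag3, a co-chaperone, was the 1 of 14 heat shock genes with an unadjusted p under 0.05 (-0.56 ± 0.20), and without control 1 it was at -0.35 and the list had none. These counts are of 0 to 3 genes, and leaving out single arrays gave 0 to 5. Each of these genes had an adjusted p of 0.82 or more by limma.

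The probe sets with the smallest p-values were mostly too dim to read as levels. Of the 10 named genes with the smallest p-values in each direction, 15 of 20 lay below the negative control median on all 4 control arrays. Of these 20 genes 0 were bright, and 19 separated the groups completely, which a choice by p-value favours. The smallest p-value on the higher side belonged to Tmcc2, a membrane protein of the endoplasmic reticulum, at 4.09, 3.90, 4.13 and 4.22 in control and 5.08, 4.94, 4.84 and 5.46 with B12 (1.00 ± 0.18, adjusted p = 0.717). The others higher were Ankar, Dennd6b, Cypt14, Hs3st4, Rnf150 and 4 receptor genes of taste and smell, Tas2r131, Olfr64, Olfr936 and Vmn1r68. All 10 were below the negative control median on all 4 control arrays.

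On the lower side stood Adam30, of a family of membrane metalloproteases, at 4.38, 3.23, 3.75 and 4.12 in control and 2.99, 2.75, 2.80 and 2.80 with B12 (-1.03 ± 0.19, adjusted p = 0.717). Without control 2 the difference was -1.25 with an adjusted p of 0.0251, the 1 call made in any fit that left out an array. Its signal lay below the negative control median on all 8 arrays. Lin28b, an RNA-binding protein that blocks let-7 maturation, was at 6.50 to 7.57 in control and 5.27 to 6.24 with B12 (-1.24 ± 0.32). In control+B12 1, 2 and 3 it was at 5.84, 5.66 and 5.27, below the negative control medians of those arrays (6.08, 5.78 and 5.72). The phosphoinositide phosphatase Synj2 (-0.90 ± 0.21), Trmt10c of mitochondrial RNase P (-0.59 ± 0.15), Utp14a of ribosome assembly (-0.70 ± 0.18) and the zinc finger gene Zfp37 (-0.67 ± 0.18) were the other 4 above the negative control median on the 4 control arrays. Klhl30, Lcn4, Lrr1 and Lrp1b lay below it.

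Bright genes were listed after the values had been seen, since the rule above named none. Among 5484 bright probe sets 56 were higher (1.02%) and 97 lower (1.77%) at an unadjusted p under 0.05, and 0 passed. Fitted on their own, with the spread estimated among bright probe sets, 138 were higher (2.52%) and 228 lower (4.16%), and again 0 passed. On the higher side Trim33, a ubiquitin ligase of SMAD signalling, was at 12.05, 11.94, 12.03 and 12.11 in control and 12.38, 12.62, 12.45 and 12.37 with B12 (0.42 ± 0.12, adjusted p = 0.762). The cereblon gene Crbn, a substrate receptor of a ubiquitin ligase, differed by 0.42 ± 0.14, the hedgehog coreceptor Cdon by 0.35 ± 0.12 and Sox9, a transcription factor of tubule repair, by 0.42 ± 0.15. Zcchc7 (0.40 ± 0.14), Ranbp9 (0.37 ± 0.13), Pkp4 (0.36 ± 0.13) and Fam120b (0.36 ± 0.12) were the other higher genes listed. Fam120b counted as bright only through its B12 arrays, with means of 10.14 in control and 10.50 with B12 around the limit of 10.30.

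On the lower side Heatr1, a factor of ribosomal RNA synthesis, was at 10.57, 11.16, 10.63 and 10.95 in control and 10.47, 10.27, 10.03 and 10.22 with B12 (-0.58 ± 0.16, adjusted p = 0.762). Fam102b (-0.58 ± 0.17), lipoic acid synthase Lias (-0.51 ± 0.16), the methylglyoxal-removing enzyme Glo1 (-0.46 ± 0.15) and the cilium gene Tmem67 (-0.42 ± 0.14) followed. Heatr1, Lias and Tmem67 counted as bright only through their control arrays, with B12 means of 10.25, 10.06 and 10.24 under the limit of 10.30. Hsd17b7, of cholesterol synthesis, was at -0.55 ± 0.18 with all arrays and at -0.39 without control 1. Wdr20 (-0.50 ± 0.15) and Ndufb3, given above, were the other lower genes listed. Of the 16 bright genes listed, 13 separated the groups completely, which their choice by p-value favours.

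Among bright probe sets with an unadjusted p under 0.05, the largest differences lay in those without a gene name here. Of all bright probe sets 6 differed by more than 0.6 at an unadjusted p under 0.05; all 6 were higher with B12, and all 6 belong to the 512 bright probe sets with no gene name. They were singled out after their values had been seen. TC1600000122.mm.2 counted as bright only through its B12 arrays, with means of 10.11 in control and 10.88 with B12 around the limit of 10.30. TC0900000240.mm.2 was at 10.32, 10.55, 10.73 and 11.18 in control and at 12.09, 11.76, 11.49 and 11.85 with B12 (1.10 ± 0.30, adjusted p = 0.762). TC0X00003337.mm.2 was at 10.29, 10.88, 10.61 and 10.92 in control and at 12.36, 11.68, 11.45 and 11.44 with B12 (1.06 ± 0.26, adjusted p = 0.762). The groups did not overlap in 4 of the 6, and in these 4 the array control+B12 1 was the highest. The 512 as a whole had 1.76% higher and 2.15% lower at an unadjusted p under 0.05 and a median difference of -0.01.

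The means of the same 6 probe sets went the other way in H/R cells. There the mean with B12 was lower by 0.28 to 0.45 in all 6, and p-values for these differences are not given here. TC0900000240.mm.2, for example, averaged 9.83 in H/R and 9.39 in H/R+B12. In all 6 every H/R array lay below every control+B12 array, which the choice of the 6 for high signal in control+B12 favours. Against the control arrays this did not hold, as H/R 1 of TC0900000240.mm.2 was at 10.66, above controls 1 and 2 (10.32 and 10.55). The test of the difference between both B12 effects (interaction) had 0 of 22206 probe sets past the adjusted threshold (0%) and 1071 (4.82%) at an unadjusted p under 0.05.

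The B12 differences of the same genes in H/R cells are set beside those of normal culture here. The H/R pair shares no array with the normal culture pair. Across 22206 probe sets the B12 differences of both pairs correlated at r = 0.02, and at 0.03 across the bright ones, as a description over genes that are not independent. Of the 20 genes named by p-value 10 had the same sign in H/R, and of the 16 bright genes 8. At an unadjusted p under 0.05 in H/R stood 1 of the 20, Olfr64 (0.33), with the same sign. Of the 16 it was 1, Zcchc7 (-0.46), with the opposite sign. Tmcc2 was at 0.06 in H/R, Adam30 at 0.20, Trim33 at 0.12 and Heatr1 at 0.07, the second and the last with the opposite sign to normal culture.

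The array control 1 stood apart from the other 7 in named groups of genes. Among 5484 bright probe sets it lay more than 1 (2-fold) from the mean of controls 2 to 4 in 22 (0.401%), 17 higher and 5 lower, whereas each of the other 7 arrays lay that far from the rest of its own group in 0 to 6. The shares were 0.0365%, 0.0365% and 0.0912% in controls 2 to 4 and 0%, 0.109%, 0.0182% and 0.0547% in control+B12 1 to 4. Over all 22206 probe sets the order was different: control 1 lay that far off in 475, the fewest of the 8 arrays, against 483 to 874 in the others. The median deviation of control 1 over all probe sets was -0.02, and its array weight in limma, 0.91, was inside the range of the other arrays, 0.80 to 1.12. With 1 array there is no replicate and no test of what sets it apart.

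Genes of G2 and M phase were the clearest group. All 30 measured members were higher in control 1 than in each of the other 7 arrays, which held for 13% of all probe sets. Control 1 lay above the mean of controls 2 to 4 in 48.2% of all probe sets, above each of them in 24.8% and below each in 25.8%. Over the list the median difference from the mean of controls 2 to 4 was 0.73. The mean over the list was 11.98 in control 1, 11.16, 11.30 and 11.13 in controls 2 to 4, and 11.10, 11.09, 11.19 and 11.16 with B12. Cyclin B2 (Ccnb2) was at 11.70 in control 1, at 10.22 to 10.68 in the other controls and at 10.43 to 10.97 with B12. Cyclin A2 (Ccna2) was at 14.02 against 12.58 to 13.05 and 12.86 to 13.08, and the spindle factor Tpx2 at 12.82 against 11.70 to 11.77 and 11.27 to 11.71. Cdk1, the kinase of mitotic entry, was at 11.04 against 9.88 to 10.23 and 9.88 to 10.45. The S phase list was higher by a median of 0.26, with 18 of 30 genes above all other 7 arrays. In bulk RNA a larger share of dividing cells and more of these transcripts per cell cannot be told apart.

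Cholesterol synthesis was the second group. Its list mean was 12.85 in control 1, 12.30, 12.26 and 12.40 in controls 2 to 4 and 12.19 to 12.35 with B12, and 13 of 19 genes were above all other 7 arrays. Idi1, isopentenyl diphosphate isomerase, was at 12.28 in control 1, at 10.79 to 11.10 in the other controls and at 10.74 to 11.19 with B12. Squalene epoxidase Sqle was at 13.33 against 12.28 to 12.82 and 12.29 to 12.75. Insig1 (0.04) and Srebf2 (-0.10), regulators of the pathway, did not stand apart in that array.

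Injury and dedifferentiation genes were the third group, with a median of 0.48 and 14 of 26 above all other 7 arrays. Keratin 8 (Krt8) was at 11.62 in control 1 against 9.86 to 10.52 in the other controls, and keratin 18 (Krt18), annexin A1 (Anxa1) and Cd44 were higher by 0.95, 0.69 and 0.56. Clu, Prom1 and Sox9 were lower by 0.50, 0.40 and 0.34 in the same array. Of the genes named for standing highest in control 1, metallothionein 2 (Mt2) came first, at 16.60 in control 1, 14.35, 15.07 and 14.29 in the other controls and 14.08 to 14.74 with B12. Cdca2, Cdc25c, Serpinb9b, Cep152, Krt8, Trpm6, Krt80, Ppm1l and Cenpi followed with 1.99 to 1.38.

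Genes lower in control 1 included the ETS factors Etv1 (5.74 against 7.32 to 7.80 in controls 2 to 4) and Etv5 (a difference of -1.42), Pik3ip1, an inhibitor of phosphoinositide 3-kinase (9.67 against 10.90 to 11.16), and the cytokine Tnfsf15 (9.38 against 10.45 to 10.91). Bloc1s6, Hoxd3os1, Sfxn4, Serinc4, Slc4a3 and Flywch2 completed the 10 lowest, with differences from -1.55 to -1.28. Medians of oxidative phosphorylation (-0.11), hypoxia-inducible factor targets (-0.01), immediate early genes (0.00) and proximal tubule genes (-0.09) did not show such a shift. Control 1 lay below each of controls 2 to 4 in 18 of 42 oxidative phosphorylation genes and above each in 10. For the other lists, in that order, these counts were 10 and 5 of 26, 5 and 10 of 31, and 15 and 14 of 51. Over all probe sets the shares were 25.8% below each and 24.8% above each. The negative control median was also highest in control 1 (6.10 against 5.85 to 5.88), and its part in these differences was not tested.

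**Figure D4:**
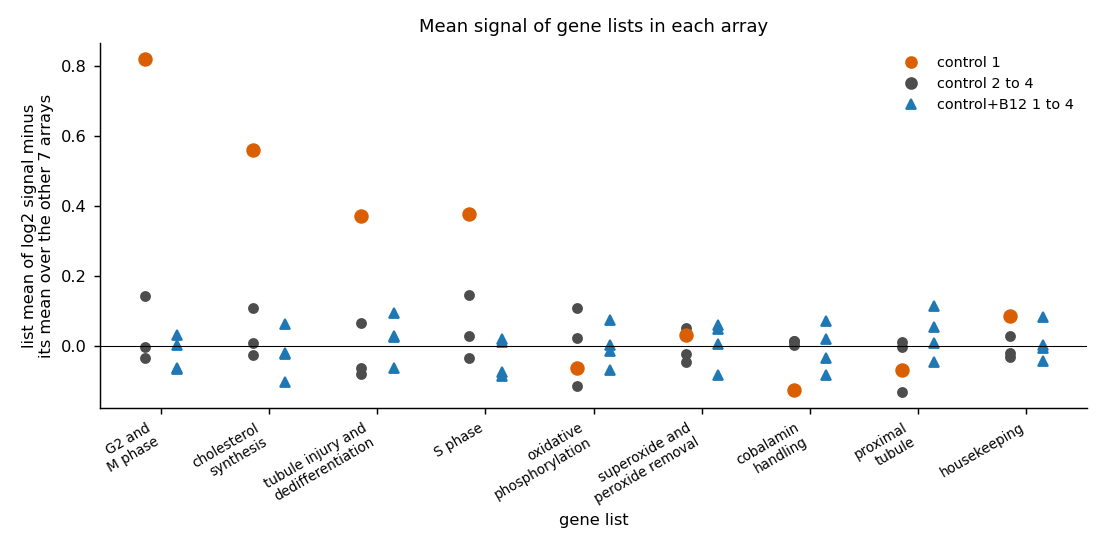
Mean log2 signal of 9 gene lists in each array, drawn as the difference from its mean over the 7 arrays other than control 1. Orange is control 1, grey circles are controls 2 to 4 and blue triangles control+B12 1 to 4; control 1 lies above all others in G2 and M phase, cholesterol synthesis, injury and S phase genes.

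Promoters are shown because members of the first 2 groups were high together in control 1. They are those of 3 genes per group that stood high there and have an entry in the RefSeq promoter table (build GRCm38.p6). Cdc25c of G2 and M phase lay further above the mean of controls 2 to 4 (1.80 against 1.31 for Ccnb2), and its promoter is not shown. The 250 bases before the first listed start site are given, 5′ to 3′ in the direction of the gene. Capitals mark CCAAT or its complement ATTGG in all 6, and in the first 3 also TTTGAA or TTCAAA, the core of a cell cycle element. The first 3 are of G2 and M phase: Ccnb2 at chr9:70421555-70421804 (minus strand), Bub1b, a spindle checkpoint kinase, at chr2:118597961-118598210 (plus strand) and Prc1, a spindle midzone protein, at chr7:80294201-80294450 (plus strand).
Ccnb2: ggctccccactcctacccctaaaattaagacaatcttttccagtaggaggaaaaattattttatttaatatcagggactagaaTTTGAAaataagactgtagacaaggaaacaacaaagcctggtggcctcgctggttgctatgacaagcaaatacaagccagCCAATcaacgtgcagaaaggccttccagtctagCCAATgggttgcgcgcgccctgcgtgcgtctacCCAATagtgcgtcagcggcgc
Bub1b: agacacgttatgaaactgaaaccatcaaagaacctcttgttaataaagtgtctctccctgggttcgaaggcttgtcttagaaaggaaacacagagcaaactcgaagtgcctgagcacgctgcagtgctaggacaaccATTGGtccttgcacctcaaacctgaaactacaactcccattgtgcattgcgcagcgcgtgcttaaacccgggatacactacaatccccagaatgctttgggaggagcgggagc
Prc1: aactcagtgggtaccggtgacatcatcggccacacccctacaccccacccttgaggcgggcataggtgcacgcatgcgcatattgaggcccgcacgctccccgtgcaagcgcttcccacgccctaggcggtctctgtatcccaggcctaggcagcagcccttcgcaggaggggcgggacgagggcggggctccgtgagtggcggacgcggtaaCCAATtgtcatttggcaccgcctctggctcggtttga
The other 3 are of cholesterol synthesis: Idi1 at chr13:8885356-8885605 (plus strand), phosphomevalonate kinase Pmvk at chr3:89454291-89454540 (plus strand) and the sterol oxidase Msmo1 at chr8:64733579-64733828 (minus strand).
Idi1: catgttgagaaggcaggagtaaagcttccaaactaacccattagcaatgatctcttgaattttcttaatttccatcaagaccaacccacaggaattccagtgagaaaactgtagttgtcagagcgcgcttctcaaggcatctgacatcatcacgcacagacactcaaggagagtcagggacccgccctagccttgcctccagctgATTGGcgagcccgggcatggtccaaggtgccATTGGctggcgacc
Pmvk: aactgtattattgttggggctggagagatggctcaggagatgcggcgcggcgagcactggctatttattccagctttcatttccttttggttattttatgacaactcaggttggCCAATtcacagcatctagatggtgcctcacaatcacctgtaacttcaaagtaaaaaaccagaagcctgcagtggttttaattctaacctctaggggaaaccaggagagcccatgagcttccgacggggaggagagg
Msmo1: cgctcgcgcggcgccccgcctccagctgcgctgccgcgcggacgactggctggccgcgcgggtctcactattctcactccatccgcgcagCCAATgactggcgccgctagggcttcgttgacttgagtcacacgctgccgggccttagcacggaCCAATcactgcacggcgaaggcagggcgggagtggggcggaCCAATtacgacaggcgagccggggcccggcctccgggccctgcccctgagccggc
Ccnb2 holds 3 CCAAT boxes, 21, 54 and 87 bases before the start, and 1 TTTGAA at 167. No marked motifs overlap.

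Of 30 G2 and M phase genes 25 matched the table. CCAAT or ATTGG stood in 20 of these 25 windows (80%) and in 34.5% of the windows of all 27025 genes, 1 window per gene. TTTGAA or TTCAAA stood in 10 of 25 (40%) against 16.3% of all. Of 19 cholesterol genes 15 matched, 14 with CCAAT (93.3%) and 1 with TTTGAA (6.67%), and the sterol element core TCACNCCAC or its reverse complement stood in 1 (6.67%) against 1.04% of all. A match is a description of letters in this window, and the data hold no measure of factor binding.

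The comparison with B12 in these groups depended on control 1. With all 8 arrays the median B12 difference over G2 and M phase genes was -0.23, with 4 of 30 lower at an unadjusted p under 0.05 (Aurkb, Tpx2, Cdc20 and Birc5) beside 2.86% of all probe sets. Without control 1 the median was -0.07, with 0 lower and 1 higher. Leaving out any of the other 7 arrays gave medians of -0.23 to -0.30 and 1 to 7 lower, the most without control 2 or control 4 (7 each) and the fewest without control+B12 2 (1) or control+B12 1 (2). The S phase list went from -0.14 with 5 lower to -0.08 with 0 lower. Leaving out any of the other arrays gave this list 2 to 5 lower, 2 without control+B12 2 or control+B12 3. Cholesterol synthesis went from -0.20 with 1 lower to 0.00 with 1 lower and 1 higher. For that list, leaving out any of the other arrays gave medians of -0.15 to -0.27 and 1 to 3 lower. Tpx2 itself was at -0.51 ± 0.21 with all arrays and at -0.23 without control 1, and Idi1 at -0.33 and 0.01.

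The count over all probe sets was the same without that array. Without control 1 the count of probe sets past the adjusted threshold was again 0, and at an unadjusted p under 0.05 there were 1206 (5.43%). Of these 585 were higher (2.63%) and 621 lower (2.8%). Among bright probe sets 38 were higher (0.693%) and 63 lower (1.15%). Pccb was at -0.88, Ndufb3 at -0.50, Heatr1 at -0.66 and Trim33 at 0.43 without it.

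**Figure D5:**
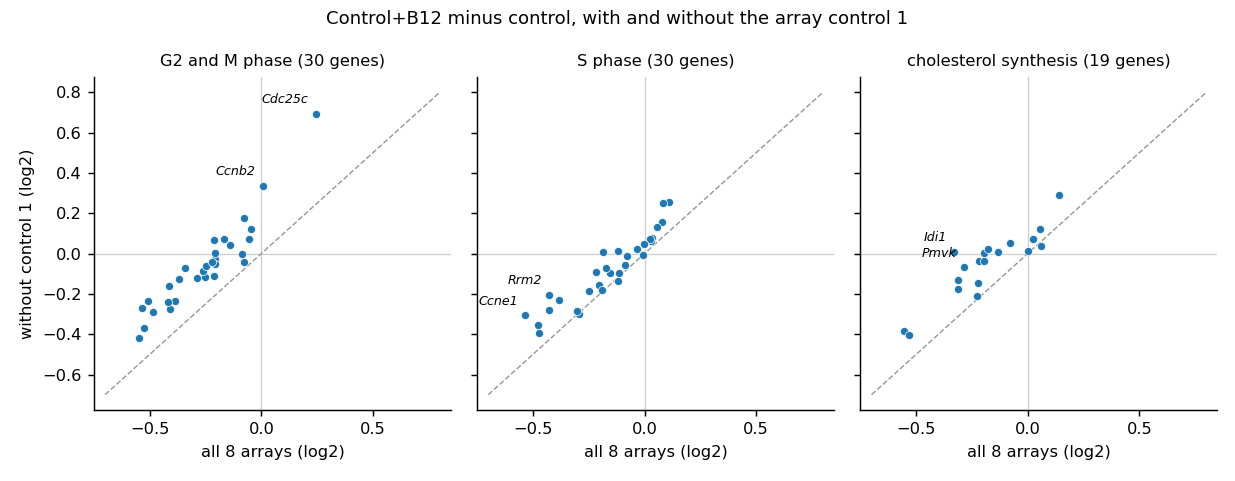
Control+B12 minus control (log2) with all 8 arrays on the horizontal axis and without control 1 on the vertical axis, 1 point per gene, for 30 G2 and M phase, 30 S phase and 19 cholesterol synthesis genes; the dashed line marks equal values. Points of the first panel lie above the line, and the median moves from -0.23 to -0.07.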

How the data were processed

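The authors deposited log2 signals per probe set for 16 Affymetrix arrays; per the submitters' processing notes, Affymetrix Expression Console, RMA (a method of background correction, quantile normalization and probe summary) and Transcriptome Analysis Console were named, with versions not given in the sources used here. Of 28846 features 6640 control features were left out, and 0 columns belonged to other samples. Gene names came from the platform annotation, and 2634 of 22206 probe sets had none. One limma 3.58.1 model (R 4.3.3) held 4 group means over 16 arrays; p-values were adjusted by Benjamini-Hochberg, at a threshold of 0.05, and every p beside a gene is from this test. Array medians were compared by exact permutation. Fits were tested on simulated data. Named genes were, since none passed, the 10 smallest p-values in each direction without predicted and small RNA genes, all cobalamin genes, up to 4 smallest p-values of each other list, marker genes, and the 10 highest and 10 lowest in control 1 above the negative control median. Bright genes and others were chosen after their values were seen. Members and lists were chosen with earlier results of these data known. Same-numbered samples deviated together at r = 0.05, 0.05, -0.01 and -0.04, so no shared deviation by number was seen. These values cannot show whether same-numbered samples were handled together. Promoters are RefSeq's (GRCm38.p6). Figures used Python 3.11.15 and matplotlib 3.10.9. Alternatives covered the model, scaling, filters, background limit and leaving out each array.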

Additional observations from a re-analysis of the deposited data

Results flagged for a closer look

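Of 166 groups of 4 arrays examined, 9 had 1 array far from the other 3, a gap that chance alone gives in about 1 of 20 groups. Control 1 was that array in 4. Its Tcn2 signal was 13.58, where the nearest control was 14.33. Its mean over the cobalamin genes was 8.67 (nearest 8.80), over NF-kB targets and cytokines 8.25 (nearest 8.12), and its negative control median was 6.10 (nearest 5.88).

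The other 5 fell on other arrays. Cd320 was low in control+B12 1, at 9.82 against 10.06 in the nearest array of the group, and Mtr in control+B12 2, at 10.25 against 10.69. Olfr936 was at 4.23 in control+B12 1 against 4.67, Trmt10c at 9.31 in control 4 against 9.81, and Fam102b at 10.57 in control+B12 4 against 10.36.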

How the results depend on the processing

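The count of 0 probe sets past the adjusted threshold was the same under the 2-group fit, a robust intensity trend, array weights, quantile normalization, median centring, 1 probe set per gene, without the dimmest 25%, and with bright probe sets alone, an alternative chosen after seeing the data. Leaving out each array in turn gave 0 to 1; the 1 was Adam30 without control 2. An unadjusted p under 0.05 with a 2-fold size gave 19, of which 10 were higher. In fits of all 22206 probe sets, counts at an unadjusted p under 0.05 ran from 1137 with array weights to 1469 without control+B12 4. Fits of fewer probe sets gave 969 of 16654 without the dimmest 25% and 1126 of 19505 with 1 probe set per gene. Bright probe sets alone gave 366 of 5484. With the replicate number as a block the adjusted count was 0, with 1351 at an unadjusted p under 0.05. The interaction had 0 past the threshold in each fit that held it.

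Proximal tubule genes above background in control numbered 11 against the negative controls' median and 10 against their 75th percentile, in place of 6, and probe sets above background 10177 and 8690. Without control 1 they were 7 and 5181. The count of bright probe sets far from the other controls in control 1 was 22 after centring and 23 after quantile normalization. Of 403 recomputed list medians 396 stayed within the spread between replicates. Of 929 recomputed values of named genes 927 stayed on their side of the threshold or within that spread. Tcn2 moved without control 1, and Adam30 passed without control 2. Among these, 15 values of 7 named genes and 39 medians of 12 lists changed sign, and none of these genes was past the threshold. The cholesterol synthesis median went from -0.20 to 0.00 without control 1, Mcee from 0.07 to -0.10 and Cd320 from 0.04 to -0.08. The other sign changes started from differences of at most 0.07. Signal near the negative controls limits what the dim probe sets can show.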

Other observations

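The widest difference of any probe set belonged to TC1700001227.mm.2, which has no gene name here and varied within every group. It was at 4.24, 6.08, 13.78 and 11.56 in controls 1 to 4 and at 4.70, 4.18, 8.98 and 2.26 with B12, a difference of -3.88 ± 1.92 (limma, adjusted over all probe sets, not past the threshold). In H/R it was at 4.68, 9.77, 11.58 and 7.14 and in H/R+B12 at 4.34, 6.18, 2.86 and 5.76. The groups overlapped in both pairs.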
